A study of Mus musculus with 8 samples.

Results

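Genes of sterol and fatty acid synthesis were followed in whole mouse kidney after dosing with cinacalcet, a drug that makes the calcium-sensing receptor more responsive to calcium. The set holds 33 genes chosen by name for their place in the pathway, with earlier results of these data known. They are 18 enzymes of cholesterol synthesis, 9 of fatty acid synthesis and its supply, 5 SREBP regulators and the sterol carrier Stard4. All 33 were measured, among 14209 genes tested, and each was well above background on all 8 arrays. The 4 control samples came from mice on standard chow, and the 4 treated samples from mice given cinacalcet hydrochloride for 5 days, at what the labels word as 1 mg per g body weight with no further basis. The labels give each mouse as a male of 12 weeks and name no strain or genotype. Kidneys were frozen whole, so every cell type of the organ, and any tissue attached to it, contributed RNA.

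Cells make cholesterol from acetyl-CoA through mevalonate, isoprenoids, squalene and a run of sterol intermediates, and they make fatty acids from the same acetyl-CoA through malonyl-CoA. SREBP transcription factors switch on both routes. When sterols are plentiful, SCAP and its SREBP cargo are held in the endoplasmic reticulum by INSIG proteins. When sterols fall, SREBP travels to the Golgi, is cut and enters the nucleus, so the enzymes of the pathway often move together.

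The upstream promoters of 5 genes that the results turn on are shown to let a reader see the elements through which SREBP and its partner NF-Y are known to act. They come from RefSeq promoters on GRCm38.p6, which held an entry for 26 of the 33 genes and 34 promoters in all. Hmgcs1 lies at chr13:119690131-119690350 on the plus strand, Idi1 at chr13:8885386-8885605 on the plus strand and Cyp51 at chr5:4104698-4104917 on the minus strand. Hsd17b7 lies at chr1:169969206-169969425 on the minus strand and Insig1 at chr5:28071192-28071411 on the plus strand. Each run covers positions -220 to -1 before the annotated start, 5′ to 3′ on the gene's strand. Capitals mark matches, on either strand, to the sterol regulatory element TCACNCCAC, the NF-Y motif CCAAT or the E-box CACGTG. A match on the opposite strand appears as its reverse complement.
Hmgcs1: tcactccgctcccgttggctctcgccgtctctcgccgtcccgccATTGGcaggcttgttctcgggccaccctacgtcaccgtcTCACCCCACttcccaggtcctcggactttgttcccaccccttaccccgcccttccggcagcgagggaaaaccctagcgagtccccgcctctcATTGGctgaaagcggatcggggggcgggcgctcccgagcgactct
Idi1: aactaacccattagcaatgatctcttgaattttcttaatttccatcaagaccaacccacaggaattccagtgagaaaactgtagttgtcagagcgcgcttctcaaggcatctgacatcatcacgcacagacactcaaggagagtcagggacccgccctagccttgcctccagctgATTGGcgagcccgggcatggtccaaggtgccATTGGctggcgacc
Cyp51: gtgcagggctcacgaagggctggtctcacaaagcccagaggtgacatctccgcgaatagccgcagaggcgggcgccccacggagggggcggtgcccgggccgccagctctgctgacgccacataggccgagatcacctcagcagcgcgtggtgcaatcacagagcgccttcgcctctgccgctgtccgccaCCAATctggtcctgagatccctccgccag
Hsd17b7: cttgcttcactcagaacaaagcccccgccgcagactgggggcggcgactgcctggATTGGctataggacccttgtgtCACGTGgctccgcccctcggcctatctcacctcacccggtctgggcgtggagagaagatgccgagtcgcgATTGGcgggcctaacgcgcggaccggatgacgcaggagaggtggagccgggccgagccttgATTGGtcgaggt
Insig1: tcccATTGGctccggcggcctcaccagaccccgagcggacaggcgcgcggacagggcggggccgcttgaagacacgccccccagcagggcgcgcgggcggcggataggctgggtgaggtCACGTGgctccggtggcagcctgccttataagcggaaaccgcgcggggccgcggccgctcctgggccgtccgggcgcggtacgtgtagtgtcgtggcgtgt

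Among the 26 genes with an entry, Hmgcs1 alone matched TCACNCCAC, at position -137 counted from the start site. The motif was present in 2.94% of the 34 promoters of the set and in 1.24% of all 32851 RefSeq promoters of the same length. CCAAT was present in 61.8% of the set's promoters against 37.4% of all, and CACGTG in 17.6% against 7.15%. Among the 14354 promoters of tested genes the shares were 1.18% for TCACNCCAC, 37% for CCAAT and 9.51% for CACGTG. Overlapping promoters of Scap counted the same E-box more than once. Of the 5 promoters shown, Hsd17b7 and Insig1 held an E-box, and the other 3 had no such letters in this window. These matches describe sequence only, and binding was not measured. Sqle, Fdps, Fdft1, Stard4, Scd1, Scd2 and Fads1 had no entry.

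Levels are log2 intensities relative to the 75th percentile of each array, with SD and n = 4 per group, and differences are cinacalcet minus control from limma with Benjamini-Hochberg adjustment over all genes tested. The labels number the samples but do not tie each to a separate mouse, so the p-values rest on spread that may be technical. Between 51.8% and 58.0% of spots were well above background on each array, and 4 arrays per group limit the precision.

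A split of the arrays bears on most results. Control 4, cinacalcet 2 and cinacalcet 3, though labelled male, had none of 4 Y-linked genes above background, and had Xist, the X-inactivation transcript, at 0.46 to 0.95. The other 5 arrays had at least 3 of the Y-linked genes above background and Xist at -6.99 to -4.22. Results are therefore given on all 8 arrays and with Y-linked signal as a block, a term in the fit that compares the groups within each kind of array. The kidney's identity was clear on all 8 arrays: the proximal tubule genes Slc34a1 and Lrp2 read 7.70 to 8.66, and Umod of the thick limb 8.64 to 8.97. Not all tubule markers were level. The 8 proximal tubule markers summed to 2122 to 2924 in controls and 1213 to 2538 with cinacalcet (linear scale). Slc7a13 read -5.63 to -3.29 on the arrays without Y-linked signal and 3.74 to 5.37 on the others. Kap read 8.09 to 10.2 against 10.3 to 10.7, and Slc22a6 6.26 to 6.46 against 7.33 to 8.10. Slc5a2, Slc5a12 and Cubn read 5.82 to 7.12 on all arrays.

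Levels of markers of other tissues and cells varied between arrays. Fat markers summed to 222 on control 4 and 46.8 to 85.5 on the other controls, and to 105 on cinacalcet 2 and 21.8 to 54.1 on the other treated arrays (linear scale, 10 of 12 markers above background on some array, Lep and Elovl3 on none). All 10 fat genes tested in limma on 8 arrays had lower estimates with cinacalcet (median -1.25). Of these Ucp1 alone passed (-5.73, adjusted p = 0.0140), where 8.02% of all genes passed in either direction. Red cell markers summed to 509 to 727 in controls and 101 to 321 with cinacalcet, with 5 of 6 above background on some array. Macrophage markers summed to 57.2 to 71.4 and 48.1 to 65.6, mostly from Csf1r and Itgam. Of 6 macrophage genes tested in limma on 8 arrays, 4 had lower and 2 higher estimates. Adgre1 (-1.65, adjusted p = 0.0200) and Csf1r (-0.56, adjusted p = 0.0209) passed as lower, where 8.02% of all genes passed in either direction. Adrenal cortex markers summed to 53.7 to 78.5 and 53.5 to 68.1, with Cyp11b1, Cyp11b2 and Mc2r above background on no array. Fdx1 made up most of that sum, at 5.67 to 6.27 (log2). Of 7 adrenal genes tested, 5 had higher and 2 lower estimates on 8 arrays, and none passed. Hsd3b1 had the highest, at 1.67 (limma adjusted p = 0.0592), but was above background on 2 of 4 controls. With the block it passed as higher (1.49, limma adjusted p = 0.0459), where 6.64% of all genes did. Liver markers summed to 69.6 to 566 and 70.6 to 608, with Ahsg above background on no array. Cyp2e1 made up most of the liver sum, at 5.57 to 6.00 (log2) on the arrays without Y-linked signal and 8.43 to 9.20 on the others, whereas Fgb ran the other way, at 1.03 to 1.40 against -0.50 to 0.42. The part of these cells in the results was not tested. In whole kidney, fewer cells of a type and less RNA per cell cannot be told apart.

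On all 8 arrays none of the 33 genes passed an adjusted p of 0.05 in limma, where 8.02% of all genes did. At an unadjusted p under 0.05 there were 14 of 33 (42.4%, against 27.9% of all genes), 6 higher and 8 lower, and the lowest adjusted p was 0.0665, for the squalene synthase gene Fdft1. Adding Y-linked signal to the fit brought 9 genes past the threshold, 27.3% of the set against 17.0% of all genes. Hmgcs1, Sqle, Cyp51, Tm7sf2 and Aacs fell, where 10.4% of all genes passed as lower, and Fdft1, Hsd17b7, Scd2 and Insig1 rose, where 6.64% of all genes passed as higher. The set thus moved in both directions, and neighbouring steps of cholesterol synthesis passed with opposite signs. Because the set was chosen with earlier results of these data known, its shares beside those of all genes are not a test of it.

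**Figure D1:**
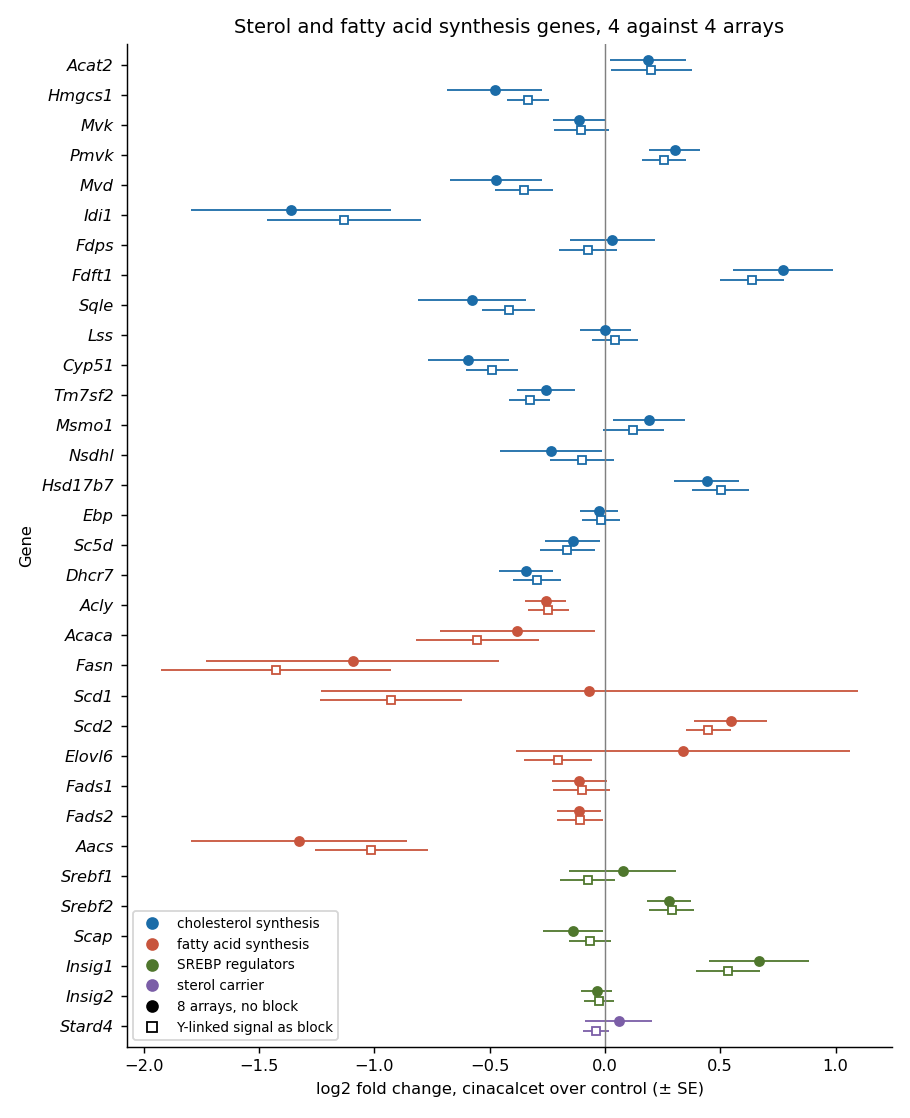
The log2 fold change of each of the 33 genes, cinacalcet over control, is plotted with its standard error, from the fit of all 8 arrays (filled circles) and the fit with Y-linked signal as a block (open squares). Genes run in pathway order and are coloured by role; estimates lie on both sides of 0, from -1.36 for Idi1 to 0.77 for Fdft1, and Scd1 and Elovl6 have wide errors without the block and narrower ones with it.

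By role, the median log2 fold change was -0.12 over the 18 cholesterol synthesis genes, -0.11 over the 9 fatty acid synthesis genes and 0.08 over the 5 SREBP regulators, beside -0.03 over all genes tested. Estimates were negative for 11 cholesterol genes and positive for 7, negative for 7 fatty acid genes and positive for 2, and positive for 3 regulators and negative for 2. With the block the medians were -0.10, -0.25 and -0.03. The regulators' median thus changed sign with the block, and none of these shifts is a test of a role.

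The mevalonate steps had estimates in both directions. Hmgcs1, which makes HMG-CoA, read 6.81, 7.12, 7.01 and 6.29 on controls 1 to 4 and 6.54, 6.16, 6.02 and 6.61 on cinacalcet 1 to 4. Control 4 lay among the treated arrays, so the groups overlapped, but within each kind of array every treated value was below every control. The difference was -0.48 (SE 0.21, adjusted p = 0.178) on 8 arrays and -0.34 (SE 0.09, adjusted p = 0.0444) with the block, 1.26-fold lower.

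Idi1, the isomerase that makes dimethylallyl diphosphate, had the most negative 8-array estimate of the set. It read 3.47, 4.02, 3.96 and 2.06 on the controls and 2.61, 2.00, 1.74 and 1.73 on the treated arrays. Controls 1 to 3 were all above the treated arrays, and control 4 fell between cinacalcet 1 and 2. The difference was -1.36 (SE 0.43, adjusted p = 0.0896), or -1.13 (adjusted p = 0.0559) with the block. On the 5 arrays with Y-linked signal it was -1.65 (adjusted p = 0.0448), and on the other 3 arrays -0.20.

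The steps between them did not move as one. Mvd, the decarboxylase that ends the mevalonate series, went from 3.11 ± 0.41 to 2.63 ± 0.18, a difference of -0.47 (adjusted p = 0.169, and 0.0926 with the block). Pmvk, the kinase just before it, read 3.48, 3.69, 3.42 and 3.85 on the controls and 3.78, 4.02, 3.89 and 3.96 on the treated arrays, and only control 4 overlapped them. Its difference was 0.30 (adjusted p = 0.123), of opposite sign to that of Mvd, and its second probe gave 0.28. Mevalonate kinase, Mvk, differed by -0.11 (95% interval -0.37 to 0.15), the cytosolic thiolase gene Acat2 by 0.19 (-0.19 to 0.56) and the farnesyl diphosphate synthase gene Fdps by 0.03 (-0.39 to 0.45).

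At the entry to sterols the direction turned. Fdft1, squalene synthase, joins a pair of farnesyl diphosphates into squalene, the first committed step toward sterols. It read 0.53, 0.38, 0.04 and 0.92 on the controls and 0.81, 1.58, 1.37 and 1.20 on the treated arrays. Control 4 was the highest control and cinacalcet 1 the lowest treated array, and they crossed. With the block Fdft1 rose 1.56-fold (log2 0.64, SE 0.14, adjusted p = 0.0231), and on 8 arrays the difference was 0.77 (SE 0.22).

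Sqle, squalene epoxidase, carries out the next reaction and moved the other way. Its levels were 3.92, 4.27, 4.21 and 3.43 on the controls and 3.85, 3.18, 3.00 and 3.50 on the treated arrays. Control 4 was below cinacalcet 1 and 4, while within each kind of array the treated values were lower. Sqle fell 1.34-fold with the block (log2 -0.42, adjusted p = 0.0474), with -0.58 (adjusted p = 0.159) on 8 arrays. Lanosterol synthase, Lss, which closes the ring, had a difference of 0.00 (95% interval -0.25 to 0.25).

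Cyp51, the lanosterol demethylase, read 2.19, 2.47, 2.20 and 1.67 on the controls and 1.59, 1.30, 1.52 and 1.75 on the treated arrays. All treated arrays were below controls 1 to 3, and cinacalcet 4 alone exceeded control 4. The fall was 1.40-fold with the block (log2 -0.49, SE 0.11, adjusted p = 0.0282), and the 8-array difference was -0.59 (adjusted p = 0.0739). It also passed on the 5 arrays with Y-linked signal, at -0.62 (adjusted p = 0.0466).

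Tm7sf2, a sterol reductase that acts after Cyp51, read 2.63, 2.54, 2.46 and 2.72 on the controls. On the treated arrays it read 2.05, 2.62, 2.40 and 2.26, so cinacalcet 2 reached into the control range. Here the arrays without Y-linked signal were the higher ones in each group. Tm7sf2 fell 1.25-fold with the block (log2 -0.33, adjusted p = 0.0446), against -0.26 (adjusted p = 0.227) on 8 arrays, and its second probe gave -0.24.

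Hsd17b7, a reductase of the sterol demethylation steps, was the only cholesterol enzyme whose groups did not overlap. Its controls read 1.31, 1.25, 0.88 and 0.76, and its treated arrays 1.42, 1.40, 1.44 and 1.70. All 4 treated arrays were above all 4 controls, with control 1 the nearest. It rose 1.42-fold with the block (log2 0.50, SE 0.12, adjusted p = 0.0334), and the 8-array difference was 0.44 (adjusted p = 0.0941), with 0.38 from its second probe. Non-overlap in this direction held for 8.01% of all genes and in either direction for 17.8%, and in the set it held for 3 of 33 (9.09%): Hsd17b7 and Srebf2, higher, and Acly, lower.

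None of the other late enzymes passed on 8 arrays or with the block. Dhcr7, which completes cholesterol, read 0.52, 0.49, 0.44 and 0.02 on the controls and 0.05, 0.10, -0.04 and -0.03 on the treated arrays. Controls 1 to 3 stood above all treated arrays, and control 4 lay within them. The difference was -0.34 (adjusted p = 0.108, and 0.0914 with the block). It was -0.47 (adjusted p = 0.0346) when only the 5 arrays that have Y-linked signal were fitted. Estimates were 0.19 for the methylsterol oxidase gene Msmo1 (95% interval -0.16 to 0.54), -0.14 for the desaturase gene Sc5d (-0.41 to 0.13) and -0.03 for the isomerase gene Ebp (-0.22 to 0.16). Nsdhl, another enzyme of demethylation, had -0.23 from its brighter probe and 0.34 from the dimmer, so its direction is unsettled.

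**Figure D2:**
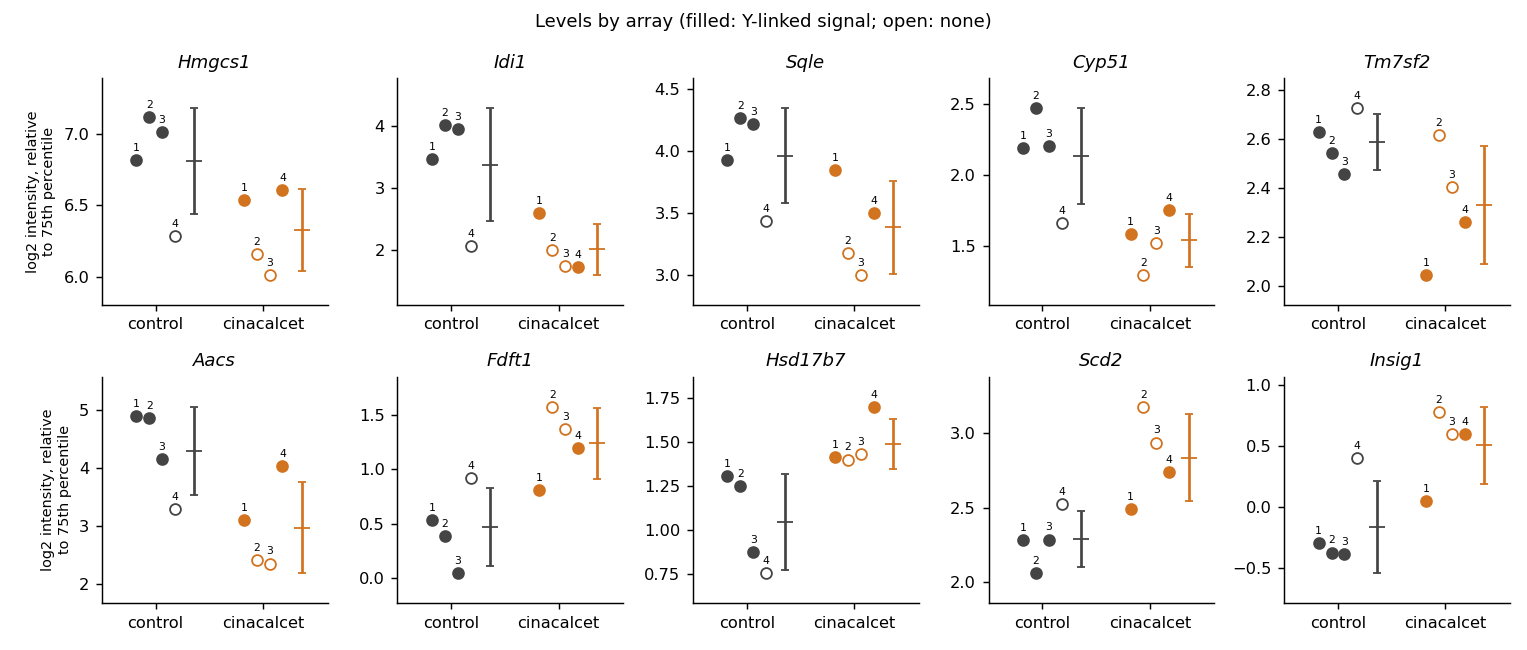
Log2 intensity relative to the 75th percentile of each array is plotted for 10 genes, with 1 point per array numbered by replicate, filled where Y-linked signal was present and open where it was not, and bars at the mean ± SD of each group (n = 4). Control 4 lies near the treated arrays in the panels of Hmgcs1, Idi1, Sqle, Cyp51 and Insig1, and Hsd17b7 is the panel with no overlap.

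Of the fatty acid genes, Aacs showed the lowest 8-array estimate. It encodes acetoacetyl-CoA synthetase, which activates the ketone body acetoacetate in the cytosol for lipid synthesis. Levels were 4.89, 4.87, 4.15 and 3.29 on the controls and 3.10, 2.41, 2.36 and 4.03 on the treated arrays. Cinacalcet 4 was above control 4, but below controls 1 to 3 that share its Y-linked signal. Aacs fell 2.02-fold with the block (log2 -1.01, SE 0.25, adjusted p = 0.0320), and the 8-array difference was -1.33 (SE 0.47, adjusted p = 0.115).

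Scd2, a stearoyl-CoA desaturase that puts the double bond into new fatty acids, read 2.28, 2.06, 2.29 and 2.53 on the controls. The treated arrays read 2.49, 3.18, 2.94 and 2.74, and cinacalcet 1 alone fell below control 4. Scd2 rose 1.36-fold with the block (log2 0.45, SE 0.10, adjusted p = 0.0237), and the 8-array difference was 0.55 (adjusted p = 0.0718).

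Acly, ATP citrate lyase, supplies cytosolic acetyl-CoA to both routes. It read 4.99, 5.05, 5.07 and 5.22 on the controls and 4.98, 4.71, 4.73 and 4.89 on the treated arrays, with no overlap although cinacalcet 1 and control 1 nearly met. Non-overlap with lower treated values held for 9.80% of all genes. The difference of -0.26 did not pass (adjusted p = 0.108, and 0.0983 with the block), and the second probe gave -0.34.

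Acaca, Fasn, Scd1 and Elovl6, the enzymes that build, extend and desaturate the chain, varied mainly between arrays of the same group. Values by array are given for Acaca, Scd1 and Elovl6 because this spread was seen. Fasn, fatty acid synthase, read -1.40, -2.59, -2.11 and 0.71 on the controls and -2.45, -2.13, -2.48 and -2.69 on the treated arrays. Control 4, the array with the highest fat marker sum, stood far above the other 7. The difference was -1.09 (SE 0.63, adjusted p = 0.298), and -0.41 without control 4.

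Acaca, acetyl-CoA carboxylase, repeated that order, with 2.96, 2.64, 2.52 and 4.20 on the controls and 2.69, 2.81, 2.69 and 2.61 on the treated arrays. The treated arrays lay within the range of controls 1 to 3. Its difference was -0.38 (adjusted p = 0.495) on 8 arrays and close to 0 without control 4 (adjusted p = 0.980), and its other probes, each highest on control 4 too, gave -0.36 and -0.21.

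Scd1, the second desaturase of the set, read 1.91, 0.40, 0.81 and 4.31 on the controls and -0.08, 3.48, 3.66 and 0.10 on the treated arrays. The 3 arrays without Y-linked signal were the 3 highest, whatever the group. Elovl6, an elongase, behaved alike at 1.37, 1.14, 1.01 and 3.71 on the controls and 1.16, 2.99, 3.21 and 1.25 on the treated arrays. For both genes the split between the kinds of array was far wider than the difference between groups, which was -0.07 (SE 1.16) for Scd1 and 0.34 (SE 0.73) for Elovl6. With the block these became -0.93 (SE 0.31, adjusted p = 0.0782) and -0.20 (SE 0.15, adjusted p = 0.373).

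Of the 3 arrays high for Scd1, control 4 and cinacalcet 2 had the highest fat marker sums of all 8 arrays, 222 and 105, and cinacalcet 3 had the lowest, 21.8. The part of fat in these values was not tested. Ucp1, the uncoupling protein of brown fat, read -0.93, 0.54, 0.43 and 3.57 on the controls and -5.36, -3.92, -5.66 and -4.38 on the treated arrays, where it was well above background on 2 of 4. Cfd, adipsin of fat cells, read 4.72, 4.04, 3.20 and 6.51 on the controls and 2.39, 5.64, 1.85 and 4.44 on the treated arrays. On the control side both were highest on control 4, as Fasn and Acaca were.

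**Figure D3:**
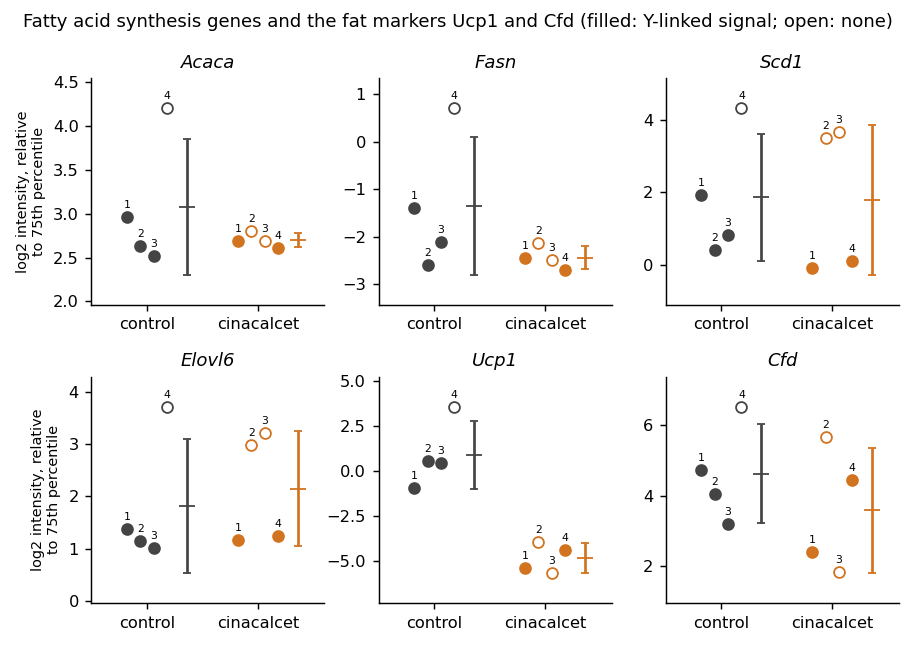
Log2 intensity relative to the 75th percentile of each array is plotted for 4 fatty acid synthesis genes and the fat markers Ucp1 and Cfd, with 1 numbered point per array, filled where Y-linked signal was present and open where it was not, and bars at the mean ± SD (n = 4 per group). Acaca and Fasn are high on control 4 alone, at 4.20 and 0.71, while Scd1 and Elovl6 are high on all 3 open points.

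The polyunsaturated desaturase genes Fads1 and Fads2 were level. Fads2 read -0.44, -0.65, -0.57 and -0.79 on the controls and -0.77, -0.57, -0.74 and -0.83 on the treated arrays, and the groups overlapped throughout. Both differed by -0.11, with 95% intervals of -0.38 to 0.16 for Fads1 and -0.33 to 0.11 for Fads2.

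Among the regulators, Insig1 was the one that passed with the block. Insig1 retains SREBP in the endoplasmic reticulum and is itself a known SREBP target. It read -0.29, -0.37, -0.39 and 0.40 on the controls and 0.05, 0.77, 0.60 and 0.60 on the treated arrays. Controls 1 to 3 were below every treated array, and control 4 was above cinacalcet 1. Insig1 rose 1.45-fold with the block (log2 0.54, SE 0.14, adjusted p = 0.0394), and the 8-array difference was 0.67 (SE 0.22, adjusted p = 0.0949). Of the enzyme genes that passed with the block, Fdft1, Hsd17b7 and Scd2 moved in the same direction as Insig1. Hmgcs1, Sqle, Cyp51, Tm7sf2 and Aacs moved in the opposite direction.

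Srebf2, which encodes the SREBP that chiefly drives sterol synthesis, read -1.40, -1.75, -1.67 and -1.56 on the controls and -1.18, -1.37, -1.40 and -1.34 on the treated arrays. The groups did not overlap, but cinacalcet 3 and control 1 differed by very little. The difference of 0.28 did not pass (adjusted p = 0.108, and 0.0786 with the block), and a dim second probe, above background on 4 of 8 arrays, gave -0.06. Srebf1, which encodes the SREBP isoforms of fatty acid synthesis, went from -2.53 ± 0.16 to -2.46 ± 0.50 and was highest on cinacalcet 2 and 3.

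Scap, the escort of SREBP, read 4.43, 4.41, 4.32 and 3.88 on the controls and 4.11, 4.05, 4.06 and 4.27 on the treated arrays. Controls 1 to 3 lay above the treated arrays and control 4 below them, and the difference was -0.14 (adjusted p = 0.525). Insig2, the other INSIG gene, read 2.53, 2.54, 2.57 and 2.39 on the controls and 2.46, 2.49, 2.51 and 2.43 on the treated arrays. Its 95% interval of -0.19 to 0.12 was among the narrowest of the set. Stard4, which carries cholesterol between membranes, read 2.00, 2.06, 1.96 and 2.45 on the controls and 1.97, 2.36, 2.36 and 2.01 on the treated arrays, so it was higher on the arrays without Y-linked signal in each group (difference 0.06, adjusted p = 0.818).

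The kind of array thus carried much of the spread within groups. In 8 of 33 genes (24.2%, against 15.4% of all genes) control 4 was above each other control, and cinacalcet 2 and 3 were both above cinacalcet 1 and 4. These were Fdft1, Tm7sf2, Acaca, Scd1, Scd2, Elovl6, Srebf1 and Stard4. In 7 genes (21.2%, against 22.0% of all genes) the order was the reverse: Hmgcs1, Mvd, Sqle, Cyp51, Nsdhl, Aacs and Scap. Scd1 showed the widest split, at 3.27 in controls and 3.57 in treated samples, while Aacs was lower by 1.34 and 1.18.

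**Figure D4:**
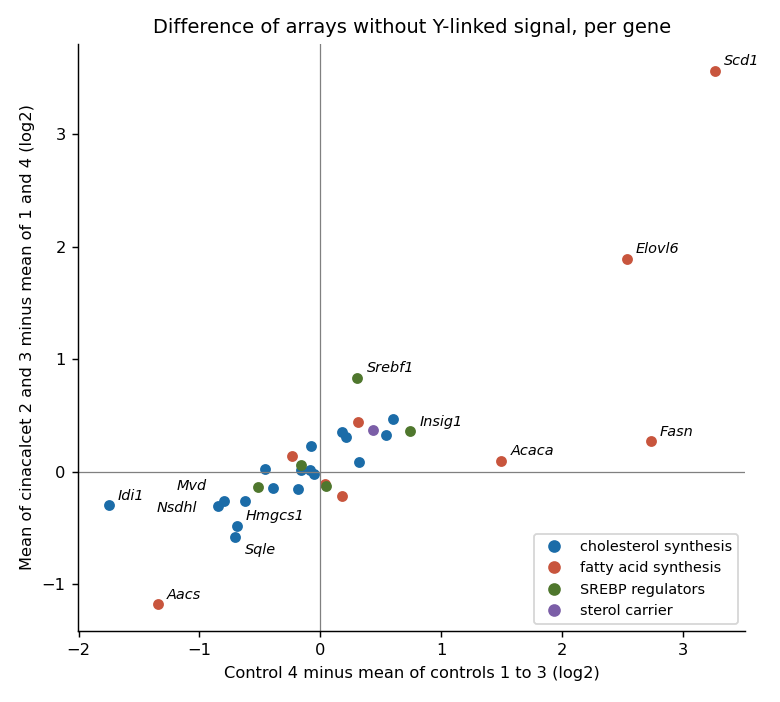
For each of the 33 genes, the log2 level on control 4 minus the mean of controls 1 to 3 (horizontal) is plotted against the mean of cinacalcet 2 and 3 minus the mean of cinacalcet 1 and 4 (vertical), coloured by role. Scd1 and Elovl6 are far up on both axes and Aacs is low on both, whereas Fasn, Acaca and Idi1 depart on control 4 with little change on the treated side.

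Within each kind of array, the groups were separate in the same direction for 14 of 33 genes (42.4%, against 32.8% of all genes). This held for 6 genes higher with cinacalcet (18.2%, against 13.7%), which were Pmvk, Fdft1, Hsd17b7, Scd2, Srebf2 and Insig1. It held for 8 genes that were lower (24.2%, against 19.1%), namely Hmgcs1, Idi1, Sqle, Cyp51, Tm7sf2, Acly, Scd1 and Aacs. On the 5 arrays with Y-linked signal alone, 4 genes passed (12.1%, against 7.85% of all genes), all as lower: Mvd, Idi1, Cyp51 and Dhcr7. The estimates with and without Y-linked signal had the same sign for 23 of 33 genes (69.7%, against 64.9%).

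Whether the treatment difference itself depended on the kind of array was tested as an interaction in limma. None of the 14209 genes passed an adjusted p of 0.05. An unadjusted p under 0.05 was found for 1814 of the 14209 genes and for 10 of the 33 in the set. The lowest p in the set was that of Acaca, whose difference was -0.05 with Y-linked signal and -1.45 without (adjusted p = 0.194). The arrays without Y-linked signal hold 1 control, so this contrast rests on control 4.

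Leaving out control 4 brought 12 of the 33 genes past the threshold (36.4%, against 23.6% of all genes). Every control left in that fit had Y-linked signal, while cinacalcet 2 and 3 had none. Treatment and the kind of array are thus partly mixed in it and cannot be told apart. The 8 lower genes were Hmgcs1, Mvd, Idi1, Sqle, Cyp51, Dhcr7, Aacs and Scap, and the 4 higher were Pmvk, Fdft1, Scd2 and Insig1. Of the lower, Hmgcs1, Mvd, Sqle, Cyp51, Aacs and Scap were also lower without Y-linked signal in both groups. Of the higher, Fdft1 and Scd2 were also higher without it in both groups. Without control 4, Idi1 stood at -1.80 (adjusted p = 0.00855), Aacs at -1.66 (adjusted p = 0.0342), Mvd at -0.67 (adjusted p = 0.0126) and Insig1 at 0.85 (adjusted p = 0.0172). Tm7sf2 and Hsd17b7, which passed with the block, did not pass here (adjusted p = 0.278 and 0.0943). Over all the alternatives that gave a p, the limma adjusted p ran from 0.00821 to 0.961 for Hmgcs1, 0.00970 to 0.886 for Sqle, 0.00429 to 0.874 for Cyp51, 0.0446 to 0.909 for Tm7sf2 and 0.00821 to 0.911 for Aacs. For the rising genes it ran from 0.00575 to 0.639 for Fdft1, 0.0334 to 0.780 for Hsd17b7, 0.00803 to 0.699 for Scd2 and 0.00471 to 0.736 for Insig1. The calls thus depended on how the arrays were modelled, while no estimate of opposite sign was itself called.

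In the wider sterol pathway all 22 further genes of enzymes, exporters and regulators were measured. Abca1, the exporter of cholesterol to lipoproteins, rose 1.68-fold from 0.26 ± 0.15 to 1.00 ± 0.19 on 8 arrays (adjusted p = 0.0146), with no overlap. The other 21 did not pass. With the block 3 rose and 5 fell, where 6.64% of all genes passed as higher and 10.4% as lower. Abca1 (0.72, adjusted p = 0.0102) and the geranylgeranyl diphosphate synthase gene Ggps1 (0.29, adjusted p = 0.0455) were among the higher genes. Among the lower were the thiolase gene Acat1 at -0.33 (adjusted p = 0.0334), and Erlin1 and Erlin2, at -0.34 and -0.28, which encode proteins of the endoplasmic reticulum membrane.

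In the wider fatty acid and lipid list 21 of 22 genes were measured and none passed on 8 arrays, where 2 had an unadjusted p under 0.05 in limma. With the block none rose and 4 of 21 fell, where 10.4% of all genes passed as lower and 17.0% in either direction. These were Me1, malic enzyme, at -0.77 (adjusted p = 0.00377), the acetyl-CoA synthetase gene Acss2 at -0.38, the citrate carrier gene Slc25a1 at -0.26 and the elongase gene Elovl2 at -0.65. The median log2 fold change on 8 arrays was -0.09 over the wider sterol list and -0.04 over the wider fatty acid list, beside -0.03 over all genes.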

How the data were processed

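RNA of 8 kidney samples of mice was hybridised to 1-colour Agilent arrays. The deposited files hold spot intensity as scanned by Agilent Feature Extraction 11.0.1.1, per the file headers, while the submitters' processing notes name version 9.5. The authors' processed intensity is background-corrected, per the file headers. Control and outlier spots were dropped, and log2 intensity minus the 75th percentile of each array was used. Spots of a probe were averaged. Probes had to exceed background clearly on 4 or more of the 8 arrays, were named by RefSeq accession (GRCm38.p6), and the brightest stood for its gene, which gave 14209 genes. Groups follow the titles. Limma 3.58.1 in R 4.3.3 (lmFit, eBayes) compared them, with a threshold of 0.05 after Benjamini-Hochberg adjustment. An array lacks Y-linked signal where none of Ddx3y, Eif2s3y, Uty and Kdm5d is above background. The arrays share 1 slide and 1 scan time, so neither could be tested as a batch. Place on the slide was partly mixed with group: column 1 held only cinacalcet 1 and 4, and column 4 only controls 2 and 4. The slide column block thus compared the groups within columns 2 and 3 alone. The fits were tested on simulated data.

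The genes, marker lists and wider lists were chosen with earlier results of these data known. Values by array were planned for genes past the threshold on 8 arrays or with the block and for up to 3 others per role with the lowest p. Of the wider lists, genes past the threshold are named, and some genes of these and of the marker lists are not reported here. Alternatives covered normalization, background correction (normexp, offset 50, on the median spot signal that the files hold), filters, probes, variance model, blocks and each array left out.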

Additional observations from a re-analysis of the deposited data

Results flagged for a closer look

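Within a group of 4 arrays, 1 array stood apart from the other 3 in 6 of 66 gene-by-group checks (the gap to the nearest array, as a share of the group's range, above Dixon's critical value). Chance gives such a gap in about 1 in 20 groups of normal values of 1 kind. Each group here mixes arrays with and without Y-linked signal, and the share over all genes was not taken. The count therefore cannot be read as a result about the set. Control 4 did so for 3 genes. Elovl6 read 3.71 there and 1.01 to 1.37 on the other controls (share 0.867), Insig1 read 0.40 against -0.39 to -0.29 (share 0.877), and Dhcr7 read 0.02 against 0.44 to 0.52 (share 0.836). Control 2 stood apart for the thiolase gene Acat2, at 2.19 against 1.80 to 1.86 (share 0.841), and for the desaturase gene Sc5d, at 0.44 against 0.13 to 0.17 (share 0.883). Cinacalcet 4 stood apart for Hsd17b7, at 1.70 against 1.40 to 1.44 (share 0.893). Cinacalcet 4 was the highest treated array for Hsd17b7, so leaving it out could not make the groups overlap.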

How the results depend on the processing

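No gene of the set passed on 8 arrays with quantile scaling, either other filter on dim probes, scaling to detected probes, the mean over probes, trend and robust eBayes or the slide column block. In limma 12 to 14 of the 33 then had an unadjusted p under 0.05, beside 3460 to 4203 of the 13289 to 20657 genes tested. The count was 1 with normexp and the 75th percentile (Scd2), 1 with normexp and quantile scaling (Cyp51), 1 with slide row as a block (Fdft1) and 15 with array weights. It was 9 with the Y-linked block, 4 on the arrays with that signal, and 0 to 12 with each array left out, with 12 without control 4 and 2 without cinacalcet 1. Within slide rows 1 and 2 none passed, with 10 and 3 at an unadjusted p under 0.05 in limma, beside 3860 and 1068 of all genes. No gene was called in opposite directions, but called genes could have an estimate of opposite sign elsewhere: Scap, called at -0.27 without control 4, had 0.18 on the arrays without Y-linked signal. Over all genes, 1139 passed on 8 arrays. The count was 367 with no filter, 5438 with array weights, 34 with the slide column block, 1 and 0 within slide rows 1 and 2 (0 passed where 1068 had an unadjusted p under 0.05 in limma), 2417 with the Y-linked block and 218 to 3356 with each array left out, the highest without control 4. The replicate block gave 0 calls over all genes (2869 at an unadjusted p under 0.05) and 0 in the set (10 at an unadjusted p under 0.05). Same-numbered samples deviated with correlations of 0.337, -0.544, -0.360 and -0.565 across genes, so the numbers did not pair the samples.

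The median of the cholesterol genes was 0.0090 on the arrays without Y-linked signal. That of the fatty acid genes was -0.62 there and -0.43 within slide row 2. The median of the 5 regulators was 0.18 on the arrays without Y-linked signal, -0.11 on those with it, -0.027 with the block, 0.30 with array weights, 0.17 within slide row 1 and -0.043 to 0.26 with each array left out. The cause of these changes was not tested. All genes of the set were above background on all arrays. Fdps, Srebf1, Elovl6 and Stard4 changed sign with the Y-linked block without a call.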
